A study of Citrus x aurantiifolia with 4 samples.

Results

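The genes described here had most of their reads on 1 assembled isoform in transgenic lime leaves and on a different one in wild-type leaves, while the reads of the whole gene stayed within 2-fold across the libraries. There were 26 such genes among 8818 genes that passed the limits on level, and among 80304 genes in the isoform table in all. They are 0.295% of the 8818 genes. Genes were chosen by the measured isoform shares and gene totals of both genotypes. A gene was taken when 1 isoform held 10% or less of its reads in both transgenic libraries and 70% or more in both wild-type libraries, and a different isoform held the reverse. It also had to have 100 or more reads in every library, and its CPM (its reads scaled by the library's total in the isoform table) had to have a highest value under 2 times the lowest. The rule would have kept at most 300 genes, so no gene was dropped for number. All values of the swap below are therefore descriptions with no test.

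Leaves came from Pramalini, a cultivar of the acid lime (Citrus x aurantiifolia). The transgenic group (TG, 2 libraries) came from PCR-positive plants overexpressing a trypsin inhibitor of the tree Putranjiva roxburghii, and the wild-type group (WT, 2 libraries) from plants of the same cultivar without the transgene. The sources used here do not give the promoter that drives the transgene, the number of transgenic lines, the age of the plants, or whether each library stands for another plant. The p-values below therefore rest on the variation among the 4 libraries alone, and this variation may be technical.

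A plant gene can give several transcript isoforms by splicing its introns in different ways, or by starting or ending at different places. These isoforms can differ in the protein they encode, or only in untranslated sequence. The reads were counted against a Trinity assembly, which joins overlapping reads into transcripts without a genome and groups related transcripts into "genes" and their "isoforms". Isoforms of such a gene can be splice forms, but also transcripts of the 2 alleles of a locus or of near-identical copies. Which of these the swapped isoforms are was not tested. The files give no gene names or sequences, and 0 of the assembled IDs matched the reference gene table, so what the 26 genes encode is not reported here. For the same reason the leaf label was not checked against marker genes.

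The library totals in the isoform table were 17309047 and 15729398 reads in TG 1 and TG 2, and 13203570 and 16935804 in WT 1 and WT 2. The 26 genes held 15321 and 16567 of these reads in the TG libraries, and 14144 and 18108 in the WT libraries. They thus made up 0.0885% to 0.107% of a library. Total reads per gene over the 4 libraries ran from 572 to 11561, with a median of 1377, against a median of 2272 over the 8818 genes. A read that matches several isoforms is divided between them by estimation, and 51 of the 52 swapped isoforms had counts with decimals in at least 1 library. A count of 0 is therefore an estimate as well, and it allows up to 3 reads in a library (counting error only).

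Summed over the 26 genes, the isoforms that were main in TG held 92.3% of the reads in TG 1 (95% Wilson interval 91.9% to 92.7%) and 91.3% in TG 2 (90.9% to 91.8%). They held 1.26% in WT 1 (1.09% to 1.46%) and 1.43% in WT 2 (1.27% to 1.62%). The isoforms that were main in WT held 3.31% in TG 1 (3.03% to 3.598%) and 2.80% in TG 2 (2.56% to 3.06%), against 92.8% in WT 1 (92.3% to 93.2%) and 92.9% in WT 2 (92.6% to 93.3%). These intervals cover counting error only. In RNA of whole leaves, fewer cells of a type and less RNA of an isoform per cell cannot be told apart. The larger pooled residue of the WT main isoforms in TG came mostly from 2 genes, TRINITY_DN21334_c2_g1 and TRINITY_DN18188_c0_g2, which held 329 of 506 such reads in TG 1 and 286 of 464 in TG 2. Without these genes, picked for that residue after seeing the data, the WT main isoforms held 1.57% in TG 1 and 1.395% in TG 2, and the TG main isoforms held 1.53% in WT 1 and 1.82% in WT 2. Leaving out genes by their residue in TG lowers that side by construction. Genes with most residue of the TG main isoforms in WT were kept. Nothing is therefore read from how close the remaining residues are.

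**Figure D1:**
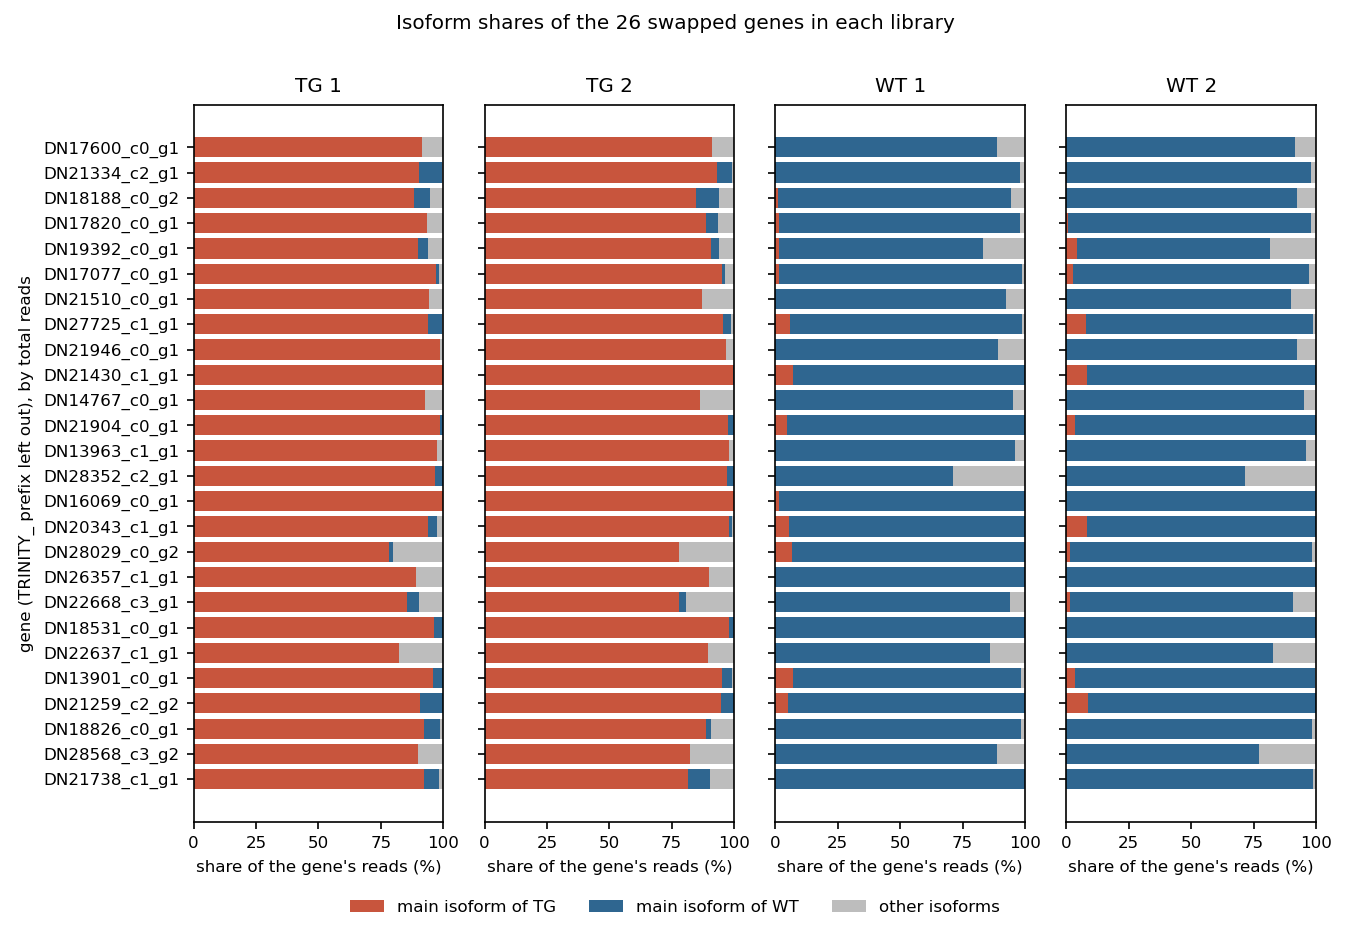
Share of each gene's reads (%, horizontal axis) held by the main isoform of TG, the main isoform of WT and all other isoforms in each of the 4 libraries, for the 26 swapped genes in order of total reads. The TG main isoform fills most of every bar in TG 1 and TG 2, and the WT main isoform fills most of every bar in WT 1 and WT 2.

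The gene with most reads was TRINITY_DN17600_c0_g1, with 8 isoforms in the table. Its isoform i7 was read 2061 and 3008 times in TG and not at all in WT. Isoform i3 was read 1.16 and 0 times in TG, against 2380 and 3046 times in WT. The main isoforms thus replaced each other with at most about 1 read left behind. Another isoform, i5, was read in both genotypes, with 125 and 227 reads in TG and 253 and 230 in WT, and it stayed a minor one throughout. The total of the gene was 130 and 210 CPM in TG and 203 and 196 CPM in WT, so the groups overlapped, and TG 1 was the lowest library.

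TRINITY_DN21334_c2_g1, the second by reads, had a steady total, at 135 and 138 CPM in TG and 149 and 137 CPM in WT. Isoform i1 had 2114 and 2021 reads in TG and none in WT. The swap was less clean in the other direction, since isoform i7 kept 220 and 129 reads in TG, against 1922 and 2278 reads in WT. In TRINITY_DN18188_c0_g2 the change was between isoforms i13 and i12. Isoform i13 had 1485 and 1412 reads in TG and 10.6 and 0 in WT, while i12 had 109 and 156 reads in TG and 1181 and 1399 in WT. This gene also had minor isoforms of both kinds. Isoform i16 had 10.7 and 10.6 reads in TG and 0 and 0.27 in WT, i1 had none in TG and 25.7 and 49.5 in WT, and i5 had 73.5 and 86.5 reads in TG and 40.5 and 64.5 in WT.

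In TRINITY_DN17820_c0_g1 isoform i9 had 855 and 778 reads in TG and 14.02 and 9.97 in WT. Isoform i8 had 0 and 40.0 reads in TG, against 913 and 1518 in WT. The TG libraries thus differed in whether any of the WT isoform was read. Of its other isoforms, i1 and i2 were read in TG alone, with 41.3 and 24.9 reads for i1 and 11.8 and 11.1 for i2. TRINITY_DN19392_c0_g1 had mainly i7 in TG and i1 in WT. Isoform i7 had 844 and 944 reads in TG and 9.64 and 30.2 in WT, and i1 had 35.3 and 34.6 reads in TG and 531 and 552 in WT. Its isoform i4 was read in both genotypes, with 55.4 and 58.6 reads in TG and 105 and 124 in WT.

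TRINITY_DN17077_c0_g1 showed a clean swap among the isoforms listed. Isoform i7 had 711 and 636 reads in TG and 10.1 and 26.9 in WT, and i2 had 8.27 and 8.44 reads in TG and 719 and 988 in WT. For this gene, however, the isoforms in the table accounted for 35.0% and 34.1% of the gene's deposited value in TG and for 43.3% and 46.2% in WT. The rest of its value belongs to transcripts that were not used here, so its shares hold only for the listed isoforms. TRINITY_DN27725_c1_g1 had residues on both sides. Isoform i1 had 782 and 785 reads in TG and 28.5 and 55.1 in WT, while i3 had 49.2 and 27.9 reads in TG and 458 and 635 in WT.

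The completeness of the other genes could be checked in part. All isoforms had a row in the isoform value table for 13 of the 26 genes. In 12 of these the isoform values added up to the gene value. TRINITY_DN17077_c0_g1 was the exception. Whole-number read totals (within 0.02 reads in every library), which a gene with no reads shared outside its listed isoforms would have, were found for 22 of the 26 genes, or 84.6%, against 79.8% of the 8818 genes. Either sign held for 23 genes. The 3 with neither were TRINITY_DN17077_c0_g1, TRINITY_DN21946_c0_g1 and TRINITY_DN22668_c3_g1.

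In 9 genes each swapped isoform had under 3 reads in both libraries of the other genotype, and in 7 of them the count was 0 in all 4 places. In TRINITY_DN21510_c0_g1 isoform i3 had 561 and 665 reads in TG and none in WT, and i4 had none in TG and 799 and 851 reads in WT. The other 2 isoforms of this gene also belonged to a single genotype. Isoform i1 had 34.2 and 96.8 reads in TG and none in WT, and i5 had none in TG and 64.5 and 94.1 in WT, so no isoform of the gene was read in both genotypes. In TRINITY_DN21946_c0_g1 isoform i3 had 593 and 547 reads in TG and none in WT, and i6 had none in TG and 476 and 641 in WT. In TRINITY_DN14767_c0_g1 isoform i3 had 527 and 491 reads in TG and none in WT, and i5 had none in TG and 438 and 466 in WT. This gene shared 1 minor isoform between the genotypes, i4, with 39.9 and 70.4 reads in TG and 20.5 and 22.5 in WT.

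The remaining 4 genes with 0 in all places were TRINITY_DN13963_c1_g1, TRINITY_DN26357_c1_g1, TRINITY_DN22637_c1_g1 and TRINITY_DN28568_c3_g2. They had 121 to 354 reads of the TG main isoform in each TG library, and 88.8 to 547 reads of the WT main isoform in each WT library. Counted over all 26 genes, the TG main isoform was at 0 in both WT libraries in 13 genes and the WT main isoform was at 0 in both TG libraries in 8. With a floor of 3 reads per library, the TG main isoforms at 0 in WT were at least 31.0-fold to at least 767-fold higher in TG by CPM. The WT main isoforms at 0 in TG were at least 34.4-fold to at least 304-fold lower in TG. These bounds cover counting error only, and not the estimated division of reads between isoforms. Libraries of a genotype can differ by more than 3 reads, as i8 of TRINITY_DN17820_c0_g1 did with 0 and 40.0 reads in TG. The isoforms were also chosen as low in the other genotype. In 11 genes neither isoform was under 3 reads in both libraries of the other genotype.

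The shares moved little between libraries of a genotype, which the rule's limits on both libraries largely set in advance. The TG main isoform held 77.7% to 100% of the gene's reads in the TG libraries, with a median of 93.1%, and the 2 TG libraries differed by a median of 1.92 percentage points and at most 10.7. The WT main isoform held 71.0% to 100% in the WT libraries, with a median of 94.3%, and the WT libraries differed by a median of 1.79 points and at most 11.6. As a measure over all isoforms, 0.5 times the summed absolute difference in shares was taken, which is 0 for equal usage and 100 points for no isoform in common. Between TG and WT libraries it was 85.8 to 100 points in the swapped genes (median 93.7). Within TG its median was 2.60 points, and within WT 2.21. Over all 8055 genes past the level limits with several isoforms, the medians were 17.2 points between genotypes, 6.32 within TG and 4.37 within WT. Since the swapped genes were chosen by their shares, nothing is read from their contrast with these medians.

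**Figure D2:**
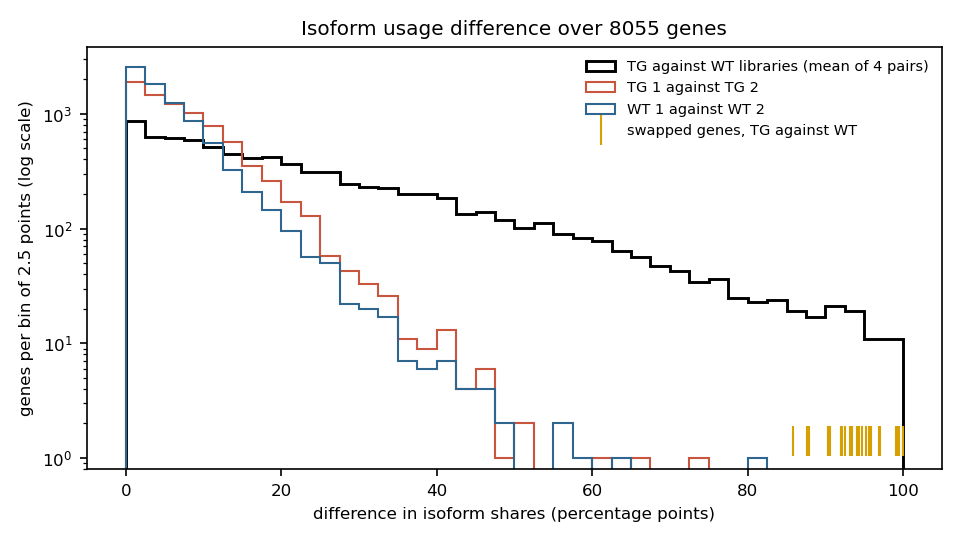
Number of genes (log scale) by the difference in isoform shares (percentage points) for 8055 genes with several isoforms, between TG and WT libraries, between TG 1 and TG 2, and between WT 1 and WT 2. The ticks of the 26 swapped genes lie between 85.8 and 100 points.

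The swapped genes are the end of a range. Among the 8055 genes past the level limits with several isoforms, the main isoform was the same in all 4 libraries in 5865. In 1228 it was the same in both libraries of each genotype and different between the genotypes. A WT main isoform gave way in 68 genes by the limits used, and a TG main isoform came up in 65, of which 26 are the same genes. In the other 42 genes whose WT isoform gave way, the leading other isoform held a median of 66.5% of the reads in TG. By genotype means it held under 50% in 8 genes and 70% or more in 17. In 18 genes it also held over 10% in WT. In the other 39 genes in which a TG isoform came up, the leading other isoform held a median of 64.9% in WT. It held under 50% in 4 genes and 70% or more in 17, and in 12 genes it also held over 10% in TG. These genes had a median of 5 and 7 isoforms, against 4.5 in the swapped genes.

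Near the limits the choice rests on few reads. The 3 genes just inside the share limits were TRINITY_DN21259_c2_g2, TRINITY_DN18188_c0_g2 and TRINITY_DN21334_c2_g1. Their deciding shares were those of the WT main isoform in a TG library, at 9.33% (95% Wilson interval 5.80% to 15.5%), 9.38% (8.05% to 10.8%) and 9.39% (8.27% to 10.6%). The 3 just outside were TRINITY_DN22548_c0_g1 and TRINITY_DN26873_c1_g2, whose WT main isoforms held 10.03% (6.98% to 13.9%) and 10.3% (8.81% to 11.9%) in TG 1, and TRINITY_DN28701_c4_g1, whose WT main isoform held 69.6% (65.3% to 73.6%) in WT 1. All 6 intervals include the limit. For gene totals, TRINITY_DN13963_c1_g1 lay just inside with a highest CPM 1.99 times the lowest, and TRINITY_DN27661_c1_g4 just outside with 2.02 times. For depth, TRINITY_DN28568_c3_g2 lay just inside with 100 reads in its lowest library, and TRINITY_DN28556_c0_g1 just outside with 91.

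The label of an unchanged gene total holds only within the rule's limit. The mean CPM in TG over that in WT ran from 0.635 to 1.41 in the swapped genes, with a median of 0.931, against a median of 0.979 over the 8818 genes. It was above 1 in 9 genes and below 1 in 17. The 3 highest ratios belonged to TRINITY_DN28568_c3_g2, TRINITY_DN19392_c0_g1 and TRINITY_DN27725_c1_g1. TRINITY_DN28568_c3_g2 had 11.8 and 9.35 CPM in TG and 7.57 and 7.50 CPM in WT. TRINITY_DN19392_c0_g1 had 54.2 and 66.2 CPM in TG and 49.2 and 42.0 CPM in WT, and TRINITY_DN27725_c1_g1 had 48.2 and 52.3 CPM in TG and 37.3 and 41.3 CPM in WT. In all 3 the TG libraries lay above the WT libraries.

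The 3 lowest ratios belonged to TRINITY_DN13963_c1_g1, TRINITY_DN21738_c1_g1 and TRINITY_DN21430_c1_g1. TRINITY_DN13963_c1_g1 had 16.9 and 23.0 CPM in TG and 29.2 and 33.6 CPM in WT. TRINITY_DN21738_c1_g1 had 6.70 and 7.82 CPM in TG and 11.97 and 10.3 CPM in WT, and TRINITY_DN21430_c1_g1 had 24.3 and 29.4 CPM in TG and 38.6 and 42.5 CPM in WT. In these genes the TG libraries lay below the WT libraries. Over all 26 genes the TG libraries were above in 6, below in 11 and overlapping in 9. Groups that did not overlap were thus found in 17 of 26 genes, and in 54.8% of the 8818 genes. The direction of the totals depends on the scaling. With TMM factors, which rest on the bulk of the genes rather than on the read total, the median log2 ratio over the 8818 genes was 0.13 higher than by plain CPM. On that scale the ratio was above 1 in 14 of the 26 genes and below 1 in 12, and the TG libraries were above in 8, below in 8 and overlapping in 10. The 26 genes then had a median ratio of 1.02, against 1.07 over the 8818 genes.

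By edgeR's quasi-likelihood test on reads summed per gene, 0 of the 26 genes were called at an adjusted p under 0.05, and 2 had an unadjusted p under 0.05. DESeq2 also called 0 of them. The test called 31.1% of all 29263 genes tested, 14.6% as higher and 16.5% as lower in TG. Of the 8818 genes past the level limits it called 3.49%, 3.37% as higher and 0.125% as lower. Since the rule holds the totals within 2-fold, nothing is read from this count. The edgeR log2 changes, which are on the TMM scale, of the 6 genes with the highest and lowest ratios were 0.67 (SE 0.31) for TRINITY_DN28568_c3_g2, 0.55 (SE 0.20) for TRINITY_DN19392_c0_g1, 0.51 (SE 0.20) for TRINITY_DN27725_c1_g1, -0.51 (SE 0.22) for TRINITY_DN13963_c1_g1, -0.47 (SE 0.27) for TRINITY_DN21738_c1_g1 and -0.44 (SE 0.20) for TRINITY_DN21430_c1_g1. Their adjusted p ran from 0.0924 to 0.246.

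**Figure D3:**
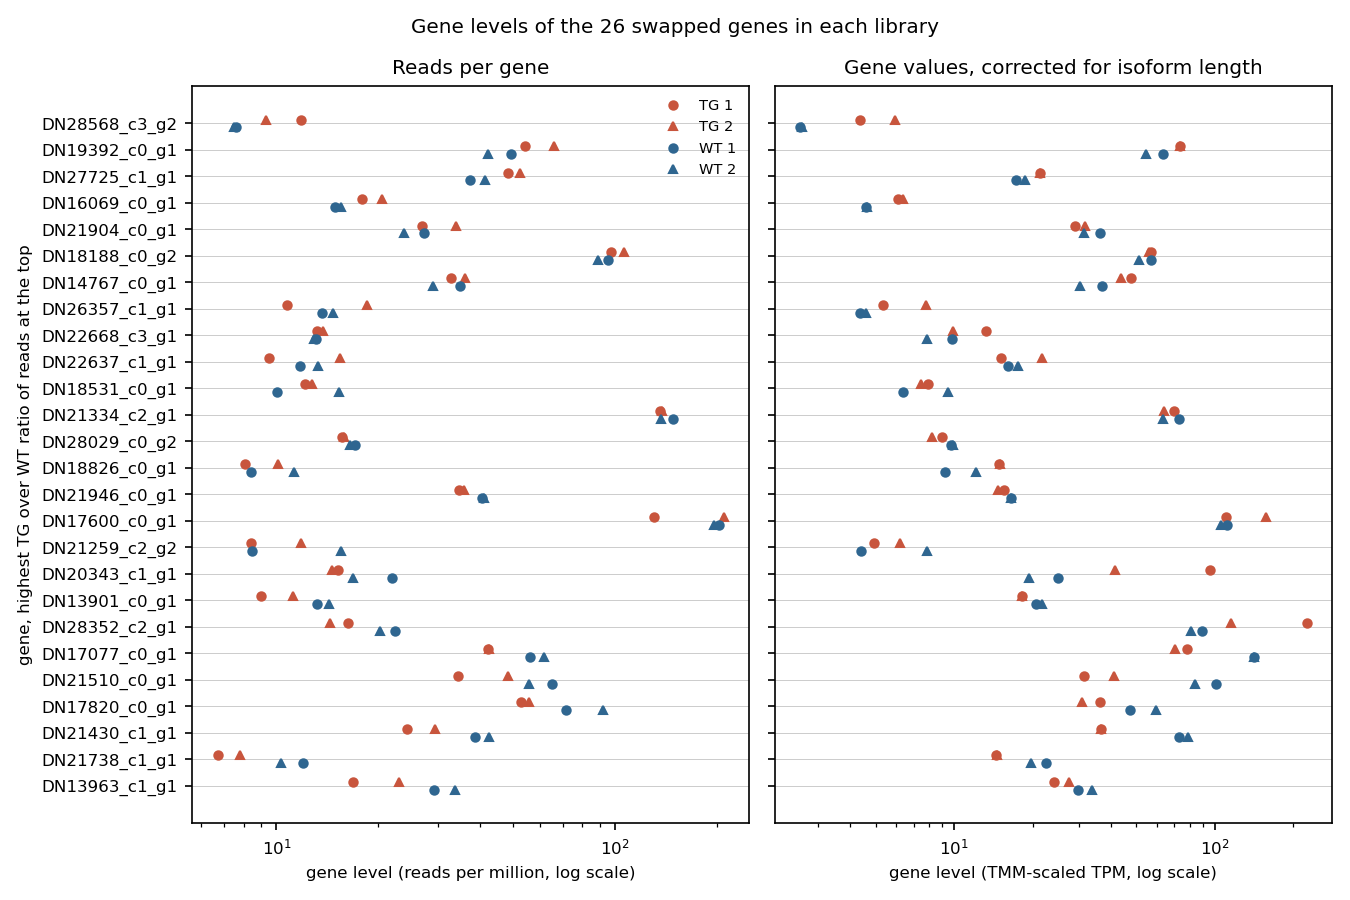
Level of each of the 26 swapped genes in each library, as CPM (left) and as TMM-scaled TPM (right), both on log scales, with genes ordered by the TG over WT ratio of reads. In CPM the TG points lie above the WT points in 6 genes and below in 11 (with TMM factors, not drawn, in 8 and 8), and in TMM-scaled TPM above in 10 and below in 9.

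Swapping the isoform could change a length-corrected level without changing the reads. The deposited gene values are in TMM-scaled TPM, that is reads corrected for transcript length and depth and then scaled between libraries. The quotient of reads and TMM-scaled TPM is proportional to the effective length of an isoform, which is its length less about a fragment. The rule did not use this length. It could be had for both swapped isoforms in 21 of the 26 genes. Between libraries the effective length of the same isoform, over 11785 isoforms with at least 100 reads in every library, differed by a median factor of 1.02, and by under 1.19 for 95% of them.

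The effective length of the TG main isoform over that of the WT main isoform had a median of 1.07 and ran from 0.377 to 2.09. The TG isoform was the longer one in 12 genes and the shorter one in 9. The 2 lengths were within a factor of 1.1 in 7 genes, and they were more than 1.5-fold apart in 4. The longer isoform exceeded the shorter by a median factor of 1.16. In 920 other genes with a different main isoform in each genotype this factor was 1.26, and 30.8% were more than 1.5-fold apart, against 19.0% of the 21 genes. For the first and second isoform of 3991 genes with the same main isoform in all libraries it was 1.55, and 52.2% were more than 1.5-fold apart. These sets differ in read depth and were not matched, and their difference was not tested.

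The 3 largest ratios were found in TRINITY_DN21510_c0_g1 (2.09), TRINITY_DN17077_c0_g1 (1.96) and TRINITY_DN21430_c1_g1 (1.498), whose TG isoforms were the longer ones. From single pairs of a TG and a WT library the ratio was 2.05 to 2.13, 1.95 to 1.98 and 1.43 to 1.57. The smallest were found in TRINITY_DN28352_c2_g1 (0.377), TRINITY_DN20343_c1_g1 (0.483) and TRINITY_DN17600_c0_g1 (0.706), whose TG isoforms were the shorter ones. For TRINITY_DN28352_c2_g1 the pairs of TG 1 with WT 1 and WT 2 gave 0.298 and 0.305, and those of TG 2 gave 0.466 and 0.476, so the direction was shared and the size was not. For TRINITY_DN20343_c1_g1 the pairs gave 0.443 and 0.445 with TG 1 and 0.525 and 0.527 with TG 2.

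**Figure D4:**
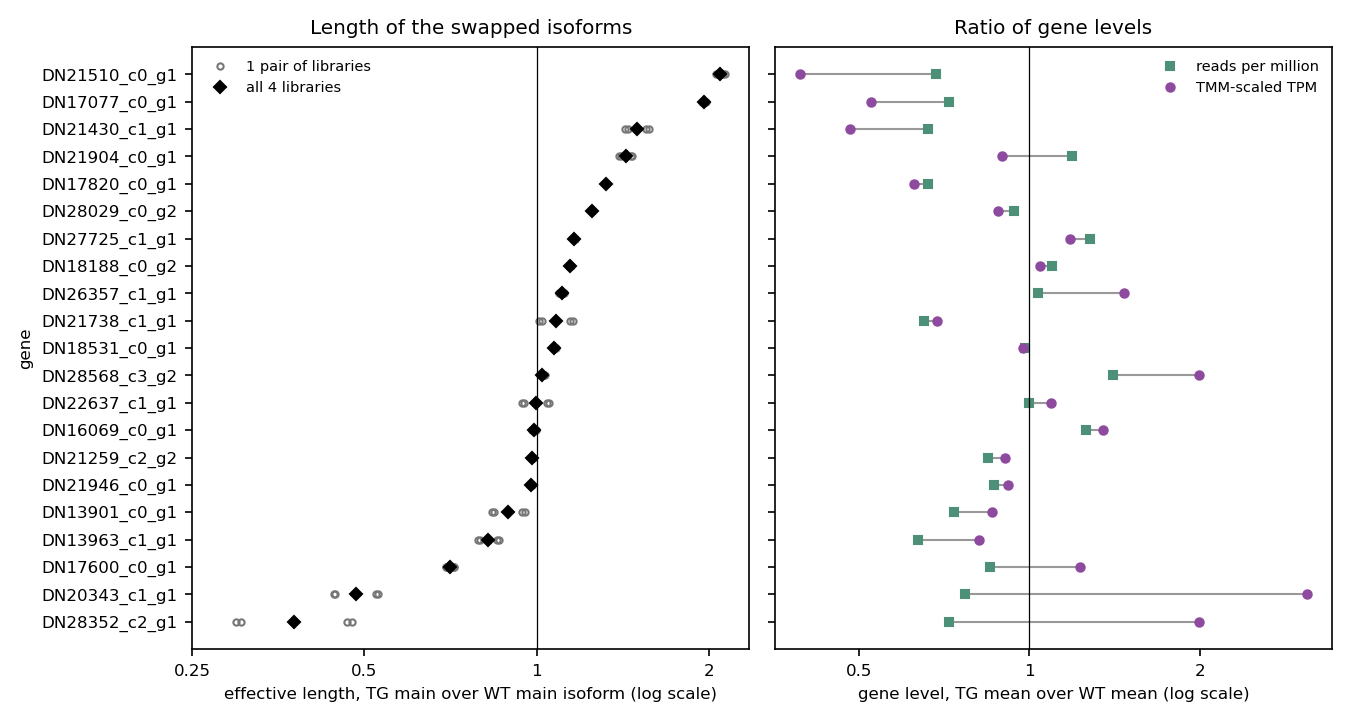
Left, effective length of the TG main isoform over that of the WT main isoform (log scale) in 21 swapped genes, from each pair of a TG and a WT library (open circles) and from all 4 libraries (diamonds), running from 0.377 to 2.09. Right, ratio of the TG mean to the WT mean (log scale) of the same genes in CPM and in TMM-scaled TPM.

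Gene values and reads parted in TRINITY_DN21510_c0_g1 and TRINITY_DN21430_c1_g1, whose TG isoforms were the longer ones. In TRINITY_DN21510_c0_g1 the gene value was 31.6 and 41.1 TMM-scaled TPM in TG and 101 and 83.8 in WT, a ratio of 0.394, while the ratio of CPM was 0.684. In TRINITY_DN21430_c1_g1, a gene of 2 isoforms, it was 36.5 and 36.7 in TG and 73.0 and 78.9 in WT, a ratio of 0.482, against 0.663 by CPM. Isoform i2 of this gene had 421 and 460 reads in TG and 36.1 and 60.2 in WT, and i1 had 0 and 2.67 reads in TG and 474 and 659 in WT. In TRINITY_DN17077_c0_g1 the gene value was 78.3 and 70.1 in TG and 141 and 142 in WT. Most of this value belongs to transcripts other than the listed isoforms, so it cannot be set against the gene's CPM. TRINITY_DN21510_c0_g1 and TRINITY_DN21430_c1_g1 were lower in TG in both measures and further apart in the gene value.

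The opposite shift was found for genes whose TG isoform was shorter. TRINITY_DN28352_c2_g1 had 16.3 and 14.4 CPM in TG and 22.3 and 20.3 CPM in WT, so it was lower in TG by reads. Its gene value was 225 and 115 TMM-scaled TPM in TG and 89.5 and 81.1 in WT, so it was higher in TG by value, and TG 1 stood well above TG 2. Here isoform i1 had 273 and 220 reads in TG and none in WT, and i2 had 9.07 and 6.56 reads in TG and 209 and 245 in WT. The reads of i1 in TG were worth 222 and 114 TMM-scaled TPM. Its effective length was 0.047 relative to the median isoform with at least 100 reads in every library. Another isoform, i3, was read in WT alone, with 85.6 and 97.6 reads.

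TRINITY_DN20343_c1_g1 had 15.2 and 14.6 CPM in TG and 21.9 and 16.8 CPM in WT, but 95.6 and 41.4 TMM-scaled TPM in TG and 25.005 and 19.4 in WT. The largest part of the value in TG 1 came from isoform i2, which had 6 and 2 reads in TG and none in WT. Those few reads were worth 56.0 and 11.7 TMM-scaled TPM, against 38.8 and 29.7 for the 247 and 226 reads of the TG main isoform i1. In TG 1 the 6 reads of i2 thus gave 56.0 of the gene value of 95.6, and in TG 2 its 2 reads gave 11.7 of 41.4. By reads the swap was between i1, with 16.2 and 24.0 reads in WT, and i3, with 9.80 and 2.45 reads in TG and 273 and 261 in WT.

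Over all 26 genes the ratio of the mean gene value in TG to that in WT ran from 0.394 to 3.09, with a median of 1.01, against a median of 1.049 over the 8818 genes. It was above 1 in 13 genes and below 1 in 13. More than 2-fold differences were found for 3 of the 26 genes, and for 3.25% of the 8818 genes. The TG libraries were above the WT libraries in 10 genes, below in 9 and overlapping in 7. Groups were thus apart in 19 of 26 genes, and in 57.5% of the 8818. The lengths were computed from these same values and reads, so the ratios by value and by reads part with the length ratio largely by construction. The 2 ratios also differ in scaling, since the values are TMM-scaled and the CPM is not. Over the 8818 genes the median ratio was 1.049 by value and 0.979 by CPM. Where the 2 lengths are nearly equal, the direction of the gap thus cannot be credited to length. The value ratio was below the CPM ratio in 9 of the 12 genes with the longer TG isoform. It was above the CPM ratio in all 9 genes with the shorter one. The exceptions were TRINITY_DN26357_c1_g1 (1.47 by value, 1.03 by CPM), TRINITY_DN28568_c3_g2 (1.99 and 1.41) and TRINITY_DN21738_c1_g1 (0.688 and 0.651). In TG 2 of TRINITY_DN28568_c3_g2, 1 read of isoform i6 was worth 2.85 TMM-scaled TPM, beside a gene value of 5.92. The 121 reads of its TG main isoform i4 in that library were worth 2.40.

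By limma on log2 of the gene value plus 1, 3 of the 26 genes were called at an adjusted p under 0.05, all lower in TG. The test called 26.2% of all 34378 genes, 12.4% as higher and 13.8% as lower in TG. This balance turned with the library left out: it called 631 genes as higher and 295 as lower without WT 1, 500 and 129 without WT 2, 593 and 1398 without TG 1, and 696 and 1639 without TG 2. Of the 8818 genes past the level limits it called 4.47%, 3.13% as higher and 1.34% as lower. The values come from the same libraries as the rule, so nothing is read from this count. The called genes were TRINITY_DN21510_c0_g1 (log2 change -1.33, SE 0.22, limma adjusted p = 0.0234), TRINITY_DN21430_c1_g1 (-1.03, SE 0.16, adjusted p = 0.0203) and TRINITY_DN17077_c0_g1 (-0.92, SE 0.17, adjusted p = 0.0277). Leaving out WT 1, WT 2 or TG 1 ended all 3 calls, and so did testing without a filter on low values. Without TG 2 limma also called 3 genes, of which TRINITY_DN21510_c0_g1 was the one shared with the calls above (adjusted p = 0.0474). The others were TRINITY_DN28352_c2_g1 (log2 change 1.39, limma adjusted p = 0.0489, against 0.91 and 0.154 with all libraries) and TRINITY_DN20343_c1_g1 (2.07, adjusted p = 0.0394). With all libraries TRINITY_DN20343_c1_g1 had a change of 1.48 (SE 0.46), the largest in size among the 26 genes, and was not called (limma adjusted p = 0.0868).

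The number of isoforms of the swapped genes ran from 2 to 10, with a median of 4.5. Exactly 2 isoforms were listed for 5 of the 26 genes (19.2%), and for 12.8% of the 8055 genes with several isoforms. The genes with most isoforms read were TRINITY_DN22637_c1_g1, TRINITY_DN17600_c0_g1 and TRINITY_DN17820_c0_g1. In TRINITY_DN22637_c1_g1, with 10 isoforms, isoform i8 had 135 and 216 reads in TG and none in WT, and i6 had none in TG and 133 and 185 in WT. The isoforms outside the swapped pair held a median of 2.09% of a gene's reads in a library and at most 29.0%. That highest share was in WT 1 for TRINITY_DN28352_c2_g1.

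These genes had 71 isoforms outside the swapped pairs, most of them rarely read. At least 10 reads in both libraries of a genotype, and either that or under 3 reads in both of the other, were found for 14. Of these, 6 were read in TG alone, 4 in WT alone and 4 in both genotypes. Besides those named above, the ones read in TG alone were i1 of TRINITY_DN28029_c0_g2, with 53.2 and 52.2 reads, and i2 of TRINITY_DN26357_c1_g1, with 19.98 and 28.9 reads. Isoform i1 of TRINITY_DN21946_c0_g1 had 0 and 2.15 reads in TG and 33.0 and 42.3 in WT. A single genotype thus held 71.4% of the 14 isoforms. Of 8982 isoforms of the other genes past the limits that lay outside the leading pair and were sorted the same way, a single genotype held 41.9%. These shares come from the same contrast as the rule, and their difference was not tested.

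The 8818 genes lay in 7568 read clusters (the DN number, a set of transcripts linked by shared sequence). Each of the 26 swapped genes lay in a different one. This is not particular to them, since the 81 genes that met the limits on 1 side only lay in 81 clusters. Of the 26 genes, 6 were alone in their cluster (23.1%, against 22.3% of the 8818 genes). In 17 of the clusters of these 26 genes, 34 other genes were tested by edgeR on summed reads. Of the 34, 7 were called (20.6%, against 31.1% of all genes tested), 2 higher and 5 lower in TG. The one with the smallest p was TRINITY_DN21259_c2_g1, which had 2 and 2 reads in TG and 69.2 and 142 in WT. In the cluster of TRINITY_DN20343_c1_g1 2 neighbours were called in opposite directions. TRINITY_DN20343_c1_g2 had 461 and 343 reads in TG and 75 and 64 in WT, and TRINITY_DN20343_c3_g1 had 107 and 88 reads in TG and 210 and 310 in WT.

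The smaller members were chosen for the same exchange, so their reads are given as descriptions. TRINITY_DN16069_c0_g1, a gene of 2 isoforms, had a near-complete exchange, with isoform i1 at 309 and 322 reads in TG and 2.90 and 0 in WT, and isoform i2 at 0 and 0 in TG and 194 and 262 in WT. TRINITY_DN21904_c0_g1 had 461 and 521 reads of i2 in TG and 16.5 and 14.6 in WT, and 5.53 and 13.3 reads of i1 in TG and 345 and 389 in WT. In TRINITY_DN18531_c0_g1 isoform i3 had 202 and 197 reads in TG and none in WT, and i5 had 8.04 and 4.04 reads in TG and 133 and 259 in WT. TRINITY_DN21259_c2_g2, also of 2 isoforms, kept the larger residues, with i2 at 132 and 176 reads in TG and 5.85 and 22.7 in WT, and i1 at 13.6 and 9.82 reads in TG and 106 and 240 in WT.

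In TRINITY_DN28029_c0_g2, TRINITY_DN13901_c0_g1 and TRINITY_DN22668_c3_g1 neither isoform was lost from both libraries of the other genotype. Isoform i2 of TRINITY_DN28029_c0_g2 had 212 and 194 reads in TG and 15.1 and 4.17 in WT, and i3 had 4.27 and 0 in TG and 210 and 272 in WT. Isoform i2 of TRINITY_DN13901_c0_g1 had 150 and 168 reads in TG and 12.1 and 8.45 in WT, and i5 had 6.47 and 7.29 in TG and 159 and 232 in WT. Isoform i7 of TRINITY_DN22668_c3_g1 had 195 and 167 reads in TG and 0 and 3.42 in WT, and i9 had 10.8 and 6.72 in TG and 163 and 196 in WT. In TRINITY_DN18826_c0_g1 and TRINITY_DN21738_c1_g1 the TG main isoform had no reads in WT and the WT main isoform left a trace in TG. TRINITY_DN18826_c0_g1 had 129 and 141 reads of i2 in TG, and 8.90 and 3.08 reads of i1 in TG against 109 and 188 in WT. TRINITY_DN21738_c1_g1 had 107 and 100 reads of i7 in TG, and 7.12 and 10.8 reads of i1 in TG against 158 and 173 in WT.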

How the data were processed

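RNA-seq of leaves was compared between 2 transgenic (TG) and 2 wild-type (WT) libraries, grouped by the sample titles. Bowtie2, RSEM and DESeq2 were used for it, without settings given, per the submitters' processing notes. The assembly, annotation and strand setting are not given in the sources used here, so genes or isoforms that share or overlap in sequence may share reads. The isoform table deposited by the authors holds RSEM expected counts for 184761 isoforms. Their gene and isoform value tables hold normalized signal, read as TPM times TMM factors per the file headers and values. A further deposited table of gene signal scaled to the read total of a library gave totals of 13510175 to 17694540, of which the isoform table held 97.6% to 97.9%. In the form used here 3 of 4 tables end inside a row, which was left out, so some isoforms are not used here.

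Counts were summed per gene and rounded, and tested with edgeR 4.0.16 (quasi-likelihood, TMM, filterByExpr) in R 4.3.3. Gene values were tested with limma 3.58.1 (trend, log2 of value plus 1, values of at least 1 in at least 2 libraries). DESeq2 1.42.0 was an alternative. Tests were fitted on whole tables, two-sided, with Benjamini-Hochberg adjustment over all genes, and were checked on simulated data. Relative effective length was reads over TMM-scaled TPM, with at least 20 reads per isoform and library, divided by the library's median over isoforms with at least 100 reads in every library, and averaged on the log scale. The members, the rule and the tests were chosen with earlier results of these data known. Named genes followed a written rule (most reads, cleanest swaps, extremes of length, isoform number, CPM ratio and limma change, and the limits). Neighbours in read clusters, minor isoforms and the smaller members were named after their values were seen.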

Additional observations from a re-analysis of the deposited data

How the results depend on the processing

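The number of swapped genes depends on the limits. It was 92 with shares of 60% and 20%, 12 with 80% and 5%, and 2 with 90% and 2% (TRINITY_DN13963_c1_g1 and TRINITY_DN16069_c0_g1). With at least 200 reads it was 16, with a CPM ratio under 1.5 it was 12, and with no limit on the ratio 53. With shares of TMM-scaled TPM, which can be had for 13 of the 26 genes, it was 12, of which 10 were among the 26. TRINITY_DN18188_c0_g2, TRINITY_DN20343_c1_g1 and TRINITY_DN28352_c2_g1 did not meet the rule on that scale. Leaving out a library gave 32 to 49 genes (49 without TG 1, 42 without TG 2). Fewer libraries mean fewer conditions, so these counts can only rise. At 50 reads the number was 34, and with TMM factors 30. Over genes with either sign of completeness described above, an alternative chosen after seeing the data, it was 23. A whole-number total alone does not show that no isoform is missing. The median length ratio was 1.03 to 1.08 with a library left out (1.03 without TG 2). It was 1.16 with both isoforms measured in the same library (7 genes), and 0.995 with missing values filled from the gene value (25 genes, chosen after seeing the data), so the median gives no direction of length. Over all genes edgeR called 9100, and 3914 to 8078 with a library left out (5708 without WT 1, 3914 without WT 2). Limma called 9018, and 1845 without the filter on low values, and 629 to 2335 with a library left out. Of the swapped genes limma called 3, and 0 without the filter, and 0 to 3 with a library left out (3 without TG 2, of which TRINITY_DN21510_c0_g1 was called with all libraries too). EdgeR and DESeq2 called 0 of them in each fit run. The cause was not tested. With the replicate number as a block edgeR called 10287 genes (0 of the 26) and limma 9626 (4 of the 26, with TRINITY_DN20343_c1_g1 added at a log2 change of 1.48, adjusted p = 0.0289). What libraries of the same number have in common is not labelled, and the differences between libraries 1 and 2 of TG and of WT correlated at r = 0.230 across genes, which are not independent replicates. Of 137 alternative values, 94 stayed on the same side of the threshold or close to the reported value. For the main results (numbers of genes and the length ratio) 30 stayed and 23 moved. For single genes and pooled residues 64 stayed, 4 moved, 14 became weaker and 2 stronger. Many of these 64 were edgeR changes of genes whose totals the rule holds within 2-fold, so staying uncalled was largely set in advance. No reversal was found among the log2 changes followed in this way. They were edgeR's for the genes with the highest and lowest CPM ratios, and limma's for the called genes and TRINITY_DN20343_c1_g1. Outside these, the edgeR log2 change of TRINITY_DN17600_c0_g1 was -0.094 with all libraries and 0.136 without TG 1. The limma change of TRINITY_DN18188_c0_g2 was 0.061 with all libraries and -0.016 without WT 2. The median length ratio crossed 1 with filled values. Depth limits what a count of 0 shows, since it allows up to 3 reads by counting error alone.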
